A study of Mus musculus with 6 samples.

Results

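The 6 genes that encode the conventional actins of the mouse, Acta1, Actc1, Acta2, Actg2, Actb and Actg1, were compared between 2 genotypes of C2C12 cells. They were taken by gene name from a deposited table of 55413 genes with a single record per ID, and each name had 1 record. All 6 also passed the filter on low values, which kept 12528 genes for testing. C2C12 cells are mouse myoblasts of an established line, and low serum makes them fuse into myotubes. The 6 libraries were 3 from cells labelled WT and 3 from cells labelled FHL3 KO, all from day 4 of differentiation, when the medium held 2% horse serum in place of the 10% fetal bovine serum used for growth. The labels give no other treatment. FHL3 is a LIM-domain protein of striated muscle, and the series title links it to fast glycolytic fibres and to the transcription factor YY1. The labels name no clone for the knockout, and they do not say whether the libraries of a group came from separate cultures. The p-values therefore rest on how much these 6 samples varied, which may be technical variation alone.

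Actin is the protein of thin filaments and of the cytoskeleton. Its monomers fold in the chaperonin TRiC, polymerise into filaments, and are encoded by a small family of genes whose proteins differ at few residues. Acta1 encodes the skeletal muscle actin and Actc1 the cardiac actin, which is also made early in skeletal myogenesis. Acta2 and Actg2 encode the actins of vascular and visceral smooth muscle, and Acta2 is also expressed in cultured myoblasts. Actb and Actg1 encode the cytoplasmic actins of nearly every cell. Many actin promoters bind serum response factor (SRF), whose coactivator MRTF is held back by free actin monomers. The CArG box is the sequence that SRF recognises.

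The deposited values carry no named unit and were read as FPKM, fragments per kilobase of transcript scaled to library size. Only on that reading can levels of different genes be set side by side, as in the shares and ratios below. The FPKM of a library summed to 425080 at the lowest and 494176 at the highest, and the read depth is unknown. The correlation of log2 values across genes was 0.977 to 0.991 for libraries of the same group and 0.930 to 0.959 for libraries of different groups. WT replicate 1 held liver transcripts, with a summed level of 8 hepatocyte markers of 111.8 FPKM against at most 0.0221 FPKM in every other library. The actin calls were the same without that library. Fhl3, the gene named in the knockout, had levels of 27.8, 30.03 and 33.7 FPKM in the WT libraries, against 57.2, 53.5 and 58.9 FPKM under the knockout label. Its RNA was thus higher under the knockout label in every library, with a log2 change of 0.87 (SE 0.0921, limma adjusted p = 0.000547). RNA over the whole gene does not show whether a protein is made, so each direction below is that of the libraries as labelled.

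Sequence in the reference bears on how well short reads tell the actins apart. The coding sequences of the 6 genes were identical at 81.5% (Acta2 and Actg1) to 88.6% (Actb and Actg1) of aligned bases, while their 3′ untranslated regions were identical at 10.7% to 47.0%. Acta1 and Actc1 had 86.3% coding identity. No window of 100 bases was shared between any pair of the 6 actin transcripts. Acta1, Actc1, Acta2 and Actg2 also shared no such window with a transcript of any other gene. Actb shared 1.1% of its windows with other genes. Actg1 was the exception, with 51.1% of all windows and 91.9% of coding windows found unchanged in 6 other genes, chiefly the pseudogene Gm12715. Its 3′ untranslated region shared none. With windows of 50 bases, a length chosen after seeing the data, the shared part was 2.22% for Acta1, 0% for Actc1 and Actg2, 0.352% for Acta2, 14.2% for Actb and 56.7% for Actg1.

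Promoters were in the RefSeq table (GRCm38.p6) for 4 of the 6 actins, Acta1, Actc1, Acta2 and Actg1. Each was searched on both strands, from 250 bases before the start to 50 bases after it, for the CArG box, for TATAAA and for CANNTG, the E-box that MyoD-type factors bind. A CArG box, taken as CC, 6 bases of A or T and GG, lay 73 bases before the start of Acta1 (CCAAATATGG), 47 bases before that of Actc1 (CCAAATAAGG) and 90 bases before that of Actg1 (CCATATATGG). It occurred in 1.63% of all 32851 promoters. Distances are from the RefSeq start, which can differ from the GENCODE start. The Actc1 stretch lies inside the Actc1 gene as annotated by GENCODE (114047282 to 114053548), so its 2 starts disagree. The stretches that overlap no annotated exon are shown because a box of this kind stands in a gene pair that rose and in a gene whose change did not pass the test. Capitals mark the box.

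Acta1, chr8:123894776-123895025, minus strand: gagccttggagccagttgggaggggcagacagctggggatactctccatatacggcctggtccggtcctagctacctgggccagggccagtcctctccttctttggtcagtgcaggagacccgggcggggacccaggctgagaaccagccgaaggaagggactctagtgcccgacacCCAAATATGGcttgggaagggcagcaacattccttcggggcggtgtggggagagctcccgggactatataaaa

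Actc1, chr2:114052888-114053125, minus strand: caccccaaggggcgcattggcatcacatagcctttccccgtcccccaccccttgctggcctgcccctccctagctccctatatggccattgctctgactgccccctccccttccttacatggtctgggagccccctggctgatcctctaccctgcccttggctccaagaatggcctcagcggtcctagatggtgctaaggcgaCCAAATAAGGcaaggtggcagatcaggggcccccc

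Actg1, chr11:120348543-120348677, minus strand: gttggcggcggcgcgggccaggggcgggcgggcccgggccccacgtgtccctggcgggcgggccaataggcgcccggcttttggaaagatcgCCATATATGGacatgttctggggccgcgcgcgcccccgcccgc

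The Acta2 window held no strict CArG box. When 1 G or C was allowed among the 6 core bases, a form searched for after seeing the data and present in 8.5% of all promoters, Acta2 had boxes 84 (CCCTATATGG) and 34 (CCTTGTTTGG) bases before its start. Acta1 had further boxes of that form at 205 and 154 bases, and Actc1 at 175, 138 and 87 bases. TATAAA, found in 13.6% of promoters, was present 7 bases before the listed start of Acta1 and 33 bases after that of Actc1. CANNTG, found in 72.3% of promoters, occurred in all 4 windows. These matches describe letters in the reference and not binding.

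The striated muscle actins were the members that rose. Actc1 (ENSMUSG00000068614, chromosome 2, 114047282 to 114053548, minus strand, GRCm38) had WT levels of 227, 208.7 and 201.2 FPKM, against 1065, 1031 and 1111 FPKM under the knockout label. The groups were far apart, and the replicates of each lay close together. The mean rose 5.03-fold, from 212.3 ± 13.3 to 1069 ± 40.1 FPKM (SD, n = 3 each), a log2 change of 2.33 (SE 0.0896, 95% interval 2.12 to 2.54, limma adjusted p = 7.91e-06). It was rank 19 among the 12528 genes tested, ordered from the largest rise, and rank 1 of 1014 tested genes on its chromosome.

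Acta1 (ENSMUSG00000031972, chromosome 8, 123891769 to 123894751, minus strand) had WT levels of 1830, 1980 and 1971 FPKM, against 5708, 5438 and 5237 FPKM under the knockout label. Every library labelled FHL3 KO exceeded every WT library. The mean rose 2.83-fold, from 1927 ± 84.4 to 5461 ± 236 FPKM, a log2 change of 1.5 (SE 0.124, 95% interval 1.21 to 1.79, limma adjusted p = 0.000208). Acta1 moved from ranks 19, 19 and 21 among all genes of a WT library to ranks 2, 2 and 4 under the knockout label. It made up 0.43%, 0.438% and 0.416% of all FPKM in WT and 1.18%, 1.14% and 1.06% under the knockout label.

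**Figure D1:**
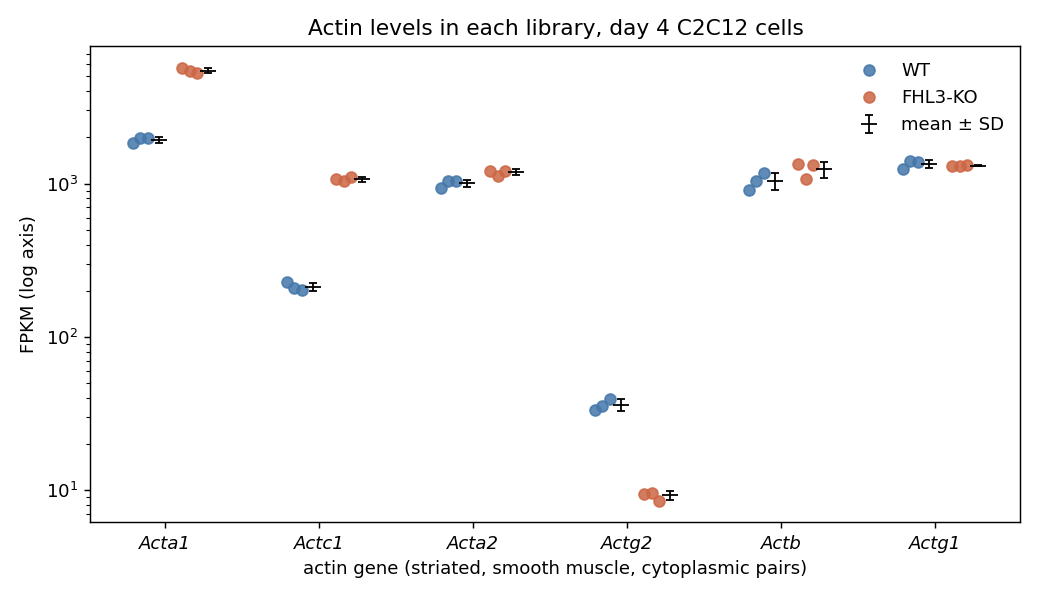
FPKM on a log axis of each actin gene in every library, with WT in blue, libraries labelled FHL3 KO in orange and the mean ± SD (n = 3) in black beside them. Acta1 and Actc1 sit higher and Actg2 lower under the knockout label, Acta2 shows a narrow gap, and the groups of Actb and Actg1 overlap.

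The smooth muscle actins did not move together. Actg2 (ENSMUSG00000059430, chromosome 6, 83512905 to 83536265, minus strand) had WT levels of 33.3, 35.4 and 39.4 FPKM, against 9.49, 9.62 and 8.53 FPKM under the knockout label. It was the one actin whose FPKM was lower in every library under the knockout label. The mean was 36.0 ± 3.1 FPKM in WT and 9.21 ± 0.592 FPKM under the knockout label, 3.91 times higher in WT, and the log2 change was -1.86 (SE 0.0937, 95% interval -2.07 to -1.64, limma adjusted p = 3.1e-05). Ordered from the largest fall, it was rank 63 of 12528 genes and rank 1 of 584 on its chromosome.

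Acta2 (ENSMUSG00000035783, chromosome 19, 34241090 to 34255590, minus strand) had WT levels of 938.4, 1035 and 1035 FPKM, against 1216, 1125 and 1214 FPKM under the knockout label. The groups did not overlap, but the gap between them was small. The means were 1003 ± 56.1 and 1185 ± 52 FPKM, 1.18-fold apart. The log2 difference of 0.24 (SE 0.102, 95% interval 0.00 to 0.48) had a limma p of 0.0472 and an adjusted p of 0.0949, so it did not pass the threshold of 0.05.

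Neither cytoplasmic actin passed the test. Actb (ENSMUSG00000029580, chromosome 5, 142903115 to 142906754, minus strand) had WT levels of 906.3, 1035 and 1173 FPKM, against 1331, 1070 and 1318 FPKM under the knockout label. FHL3 KO replicate 2 lay below WT replicate 3, so the groups overlapped. The log2 difference was 0.26 (SE 0.142, 95% interval -0.08 to 0.59, limma adjusted p = 0.185), which allows a higher level by up to 0.59 on the log2 scale.

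Actg1 (ENSMUSG00000062825, chromosome 11, 120345690 to 120348542, minus strand) had WT levels of 1250, 1405 and 1374 FPKM, against 1302, 1296 and 1318 FPKM under the knockout label. The libraries labelled FHL3 KO all lay within the WT range. The log2 difference was -0.04 (SE 0.103, 95% interval -0.28 to 0.20, limma adjusted p = 0.781). The pseudogene Gm12715, which holds 44.4% of its windows, had a level of 198.3 ± 16.5 FPKM in WT and 161.7 ± 33.9 FPKM under the knockout label, a difference that did not pass (log2 -0.31, limma adjusted p = 0.158). Gm8399, with 17.6% of the windows, was much lower in level and fell from 7.98 ± 0.657 to 5.53 ± 1.19 FPKM (log2 -0.47, limma adjusted p = 0.0338). That call was lost without FHL3 KO replicate 2 or 3 or WT replicate 2 or 3, with the replicate block (limma adjusted p = 0.058), with quantile normalization and with no filter. Reads could have been split between these genes, so the Actg1 level is less certain than the other actins'. With the reads of the 6 sharing genes added to Actg1, an alternative chosen after seeing the data, no call changed.

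Over the family, 3 of the 6 actins passed the test, 2 higher and 1 lower, and 4 of the 6 had groups that did not overlap. Across all genes tested, limma called 40.8% (19.7% higher and 21.2% lower), and 53.8% had groups that did not overlap. The number of actins that passed was therefore close to this background, while their changes were among the larger ones: from the top, Actc1 and Acta1 were ranks 19 and 91 of the rises and Actg2 rank 63 of the falls. These ranks are of changes in log2(FPKM + 1), which understates changes of low genes and so favours high genes in the order. With every library scaled to the same sum, the share of calls that were higher went from 48.2% to 36.1% and the median change of all genes from -0.01 to -0.10. The actin calls and directions were the same under that scaling.

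**Figure D2:**
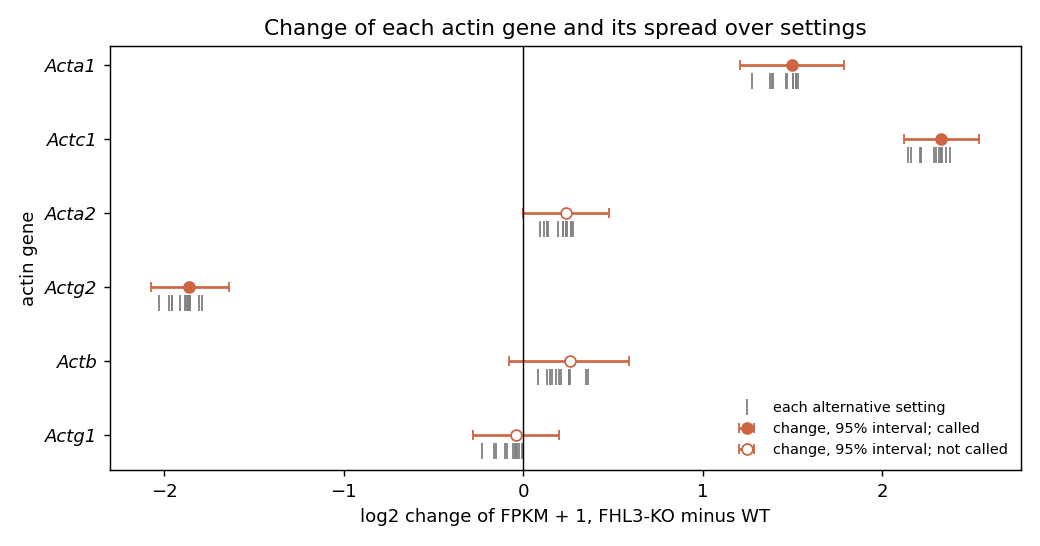
Log2 change of FPKM + 1, FHL3 KO minus WT, for each actin gene with its 95% interval (filled where the gene passed the test, open where it did not) and, as grey ticks, the change under each alternative setting. The ticks of Actc1, Acta1 and Actg2 stay far from 0, while those of Acta2, Actb and Actg1 lie between -0.228 and 0.359.

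The total of actin transcripts was higher under the knockout label, mostly through the striated pair. The 6 genes summed to 5560 ± 328 FPKM in WT and to 10269 ± 335 FPKM under the knockout label, 1.85-fold apart. Of this difference of 4709 FPKM, Acta1 supplied 75% and Actc1 18.2%, Actb 4.28% and Acta2 3.86%. The exact two-sided permutation p was 0.1, the smallest that 3 libraries against 3 allow. The sum of Acta1 and Actc1 was 2057, 2189 and 2173 FPKM in WT and 6773, 6468 and 6348 FPKM under the knockout label, 3.05-fold apart (exact permutation p = 0.1). The 4 other actins together summed to 3420 ± 259 and 3739 ± 207 FPKM, with overlapping groups (exact permutation p = 0.3).

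The composition of the actin transcripts differed accordingly. Acta1 made up 35.3%, 34.7% and 34.0% of the summed actin FPKM in WT and 53.7%, 54.5% and 51.3% under the knockout label. Actc1 made up 4.38%, 3.66% and 3.47% in WT and 10.0%, 10.3% and 10.9% under the knockout label. The striated pair thus went from a mean of 38.5 ± 1.09% to 63.6 ± 1.35% of actin transcripts, with no overlap of the groups.

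The shares of the other 4 were all lower under the knockout label in every library. The mean share of Actg1 was 24.2 ± 0.473% in WT and 12.7 ± 0.41% under the knockout label, that of Actb 18.6 ± 1.44% and 12.1 ± 1.16%, and that of Acta2 18.0 ± 0.156% and 11.5 ± 0.319%. Actg2 had 0.647 ± 0.0301% and 0.0898 ± 0.00646%. Each of the 6 shares had an exact two-sided permutation p of 0.1 (0.1 after adjustment over the 6), the smallest possible. A share is relative, since the striated pair is in its denominator. As parts of the whole library, the mean differences of Acta2 and Actb were 0.0214 and 0.0254 percentage points, and those of Actg1 and Actg2 -0.0293 and -0.0061 points. The groups of Actb overlapped (0.213%, 0.229% and 0.248% in WT, 0.275%, 0.224% and 0.267% under the knockout label). On this scale Actg1 was lower in every library under the knockout label (0.294%, 0.311% and 0.29% against 0.27%, 0.271% and 0.267%), whereas its FPKM there lay within the WT range.

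**Figure D3:**
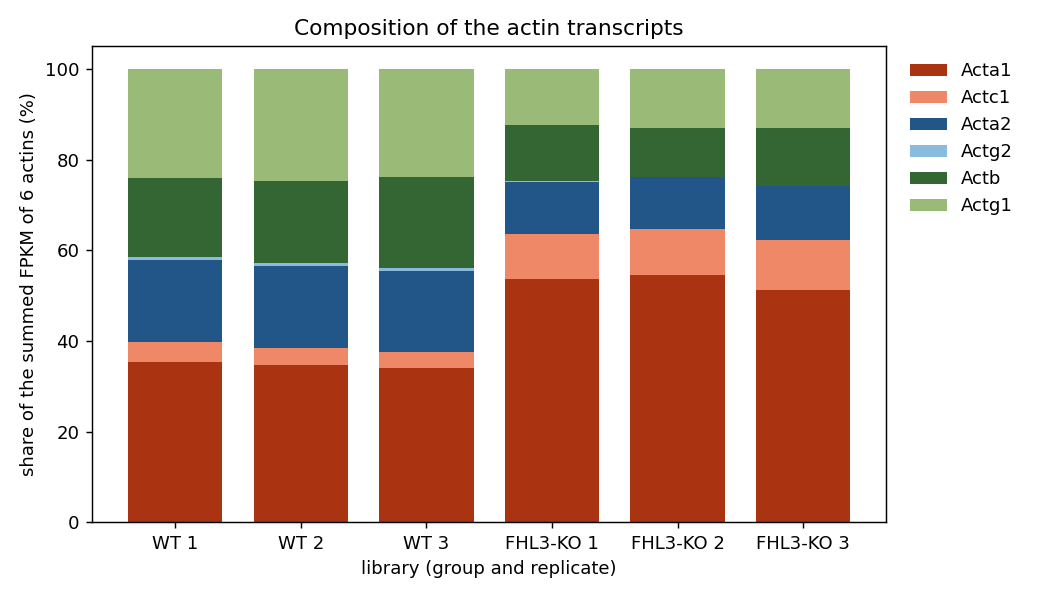
Share in percent of each of the 6 actin genes in their summed FPKM, as stacked bars for each library. The striated pair, Acta1 and Actc1 at the bottom, takes 37.5% to 39.7% of the WT bars and 62.2% to 64.9% of the FHL3 KO bars.

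Within each pair of related actins the balance was also compared, as 4 ratios. Actc1 relative to Acta1 was 0.124, 0.105 and 0.102 in WT and 0.187, 0.19 and 0.212 under the knockout label, so the cardiac gene gained on the skeletal one in each library. The log2 ratio was higher by 0.83 (exact two-sided permutation p = 0.1, adjusted over 4 ratios 0.133). Actg2 relative to Acta2 was 0.0355, 0.0341 and 0.038 in WT and 0.00781, 0.00855 and 0.00703 under the knockout label, a log2 difference of -2.21 (exact permutation p = 0.1, adjusted 0.133). Actg1 relative to Actb was 1.38, 1.36 and 1.17 in WT and 0.979, 1.21 and 1.0 under the knockout label, with overlapping groups (exact permutation p = 0.2, adjusted 0.2). The ratio of striated to cytoplasmic actin was 0.954, 0.897 and 0.853 in WT and 2.57, 2.73 and 2.41 under the knockout label (exact permutation p = 0.1, adjusted 0.133).

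The order of the mean levels was the same in both groups, while the distances between them differed. In WT, Acta1 (1927 FPKM) was followed by Actg1 (1343), Actb (1038), Acta2 (1003), Actc1 (212.3) and Actg2 (36.0). The ranges of Actb and Acta2 overlapped, and only 1 of 3 libraries had them in this order. Under the knockout label, Acta1 (5461 FPKM) was followed by Actg1 (1305), Actb (1240), Acta2 (1185), Actc1 (1069) and Actg2 (9.21). There the ranges of Actg1, Actb and Acta2 overlapped from neighbour to neighbour, whereas Acta2 was above Actc1 in all 3 libraries. Actc1 thus kept its place in the order, with a mean near that of Acta2 under the knockout label.

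The 6 genes lie on 6 chromosomes, all on the minus strand, and their neighbours differed in how they moved. Of the 14 tested genes whose starts lie within 500 kb of Acta1, 8 were called higher and 2 lower, with a median log2 change of 0.37. The same held over the whole of chromosome 8, where 51.4% of 675 other tested genes were called higher, against 19.7% of all genes, and the median was 0.37. Acta1 exceeded that chromosome median by 1.13 on the log2 scale and was rank 6 of 676 tested genes there. The part of the chromosome-wide difference in the Acta1 value was not tested. The nearest tested gene, the predicted gene Gm29773, 1.52 kb upstream, rose by 0.82 (limma adjusted p = 0.00196), from levels of 1.25, 1.25 and 0.999 FPKM to 2.71, 3.16 and 2.64 FPKM. It was named after its value was seen.

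Actc1 and Actg2 did not share their direction with most of their neighbours. Near Actc1, 1 of 6 neighbours was called higher and 2 lower, with a median of 0.07. Over the rest of chromosome 2, 24% were called higher and 15.8% lower. Near Actg2, 2 of 26 were called higher and 3 lower, with a median of 0.13, beside 14.8% and 21.8% over chromosome 6. Near Acta2 only 4 genes were tested, and 3 of them were called lower, beside 16.9% over chromosome 19. Among them was Fas, which encodes a death receptor and fell from 5.13, 4.17 and 4.13 FPKM to 1.38, 1.45 and 1.32 FPKM (log2 -1.20, limma adjusted p = 0.000395, also named after its value was seen). Around Actb 3 of 14 were called higher and 1 lower, beside 18.4% and 20% over chromosome 5. Around Actg1 the counts were 7 of 36 and 3 of 36, beside 18.4% each way over chromosome 11. Genes annotated across an actin on either strand were near 0: Galnt2l over Acta1 was listed at 0 in all libraries, A530058N18Rik over Actc1 reached 0.512 FPKM, and Mir6935 within Actg1 0.00151 FPKM.

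**Figure D4:**
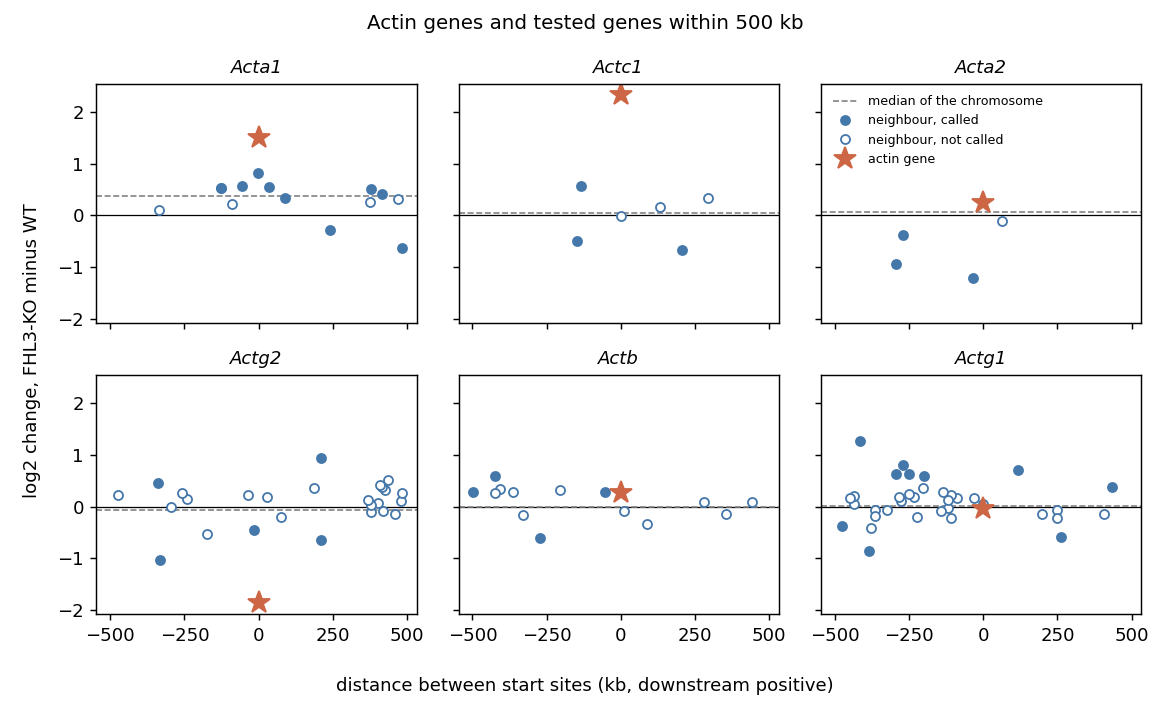
Log2 change (FHL3 KO minus WT) of each actin gene (star) and of the tested genes within 500 kb (circles, filled where called), by distance between start sites in kb, with the median of the chromosome dashed. The stars of Acta1, Actc1 and Actg2 stand beyond all of their neighbours, and most neighbours of Acta1 lie above 0.

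The genes whose values over the 6 libraries were most like each actin were listed by the root mean square difference of centred log2 values. They came from 8507 genes that averaged 5 FPKM or more in either group, with predicted, clone-named and unnamed genes left out. For Acta1 these were Dusp5 (0.06), which encodes a phosphatase of the kinase ERK, Spry1 (0.0762), an inhibitor of receptor tyrosine kinase signalling, and Cav3 (0.0872), the caveolin of muscle. For Actc1 they were Egr2 (0.0689), an immediate early transcription factor, Galnt6 (0.0871) and Actn2 (0.0966), the alpha-actinin of the Z-disc. Egr2 and Galnt6 were low in WT (means of 0.628 and 0.457 FPKM). They reached the filter of 5 FPKM only under the knockout label (6.98 and 6.57 FPKM). For Actg2 they were Slc27a3 (0.118), mt-Tl1 (0.119) and Ly6e (0.123). The remaining lists were B4galt7, Nop56 and Cdc42ep1 for Acta2, Atg101, Cnpy2 and Pfdn5 for Actb, and Ap2m1, G6pdx and Rassf1 for Actg1. With 6 libraries in 2 groups, this likeness follows mainly the size of the difference between groups in log2(FPKM + 1). That scale understates changes of low genes, so a low gene can be listed although its fold differs from that of the actin.

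SRF and its partners act on actin promoters. Of 10 SRF factors, 9 were tested, none was called higher and 1 lower, beside 19.7% and 21.2% over all genes. Their median was -0.02, against -0.01 for all genes. Over the alternatives 0 to 1 were called higher and 1 to 2 lower. Srf itself stood at 27.6 ± 0.347 and 32.4 ± 3.17 FPKM and did not pass. The MRTF coactivators Mrtfa (17.9 and 18.0 FPKM) and Mrtfb (6.54 and 5.30 FPKM) did not pass either. Myocd, the coactivator of smooth and cardiac muscle, was below 0.2 FPKM in every library and not tested. Mical2, which oxidises actin and so acts on MRTF, was the one that fell, from 38.4, 33.2 and 31.3 FPKM to 18.4, 24.2 and 20.5 FPKM (log2 -0.68, limma adjusted p = 0.00443).

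Of 24 tested SRF targets outside the actins, 7 were called higher and 6 lower, with a median of 0.05. Together 13 of the 24 were called, beside 40.8% over all genes (19.7% higher and 21.2% lower). Whether the list differs from all genes was not tested. Egr1, an immediate early transcription factor, rose from 21.7, 17.9 and 16.5 FPKM to 75.1, 83.2 and 71.6 FPKM (log2 1.99, limma adjusted p = 5.2e-05). Ccn1, a secreted matricellular protein, rose from 123.2 ± 4.72 to 200.9 ± 6.58 FPKM (log2 0.70, limma adjusted p = 0.000547). Filip1l fell from 42.0 ± 7.12 to 12.4 ± 2.72 FPKM (log2 -1.69, limma adjusted p = 0.00047). Cnn1, the smooth muscle calponin, was low throughout and fell from 1.24 ± 0.192 to 0.151 ± 0.127 FPKM (log2 -0.96, limma adjusted p = 0.0022).

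Of 23 tested genes that nucleate actin filaments, 6 were called higher and 2 lower, beside 19.7% and 21.2% over all genes. Cobl, which nucleates unbranched filaments, rose from 35.6, 31.9 and 31.3 FPKM to 81.1, 73.6 and 80.3 FPKM (log2 1.23, limma adjusted p = 9.85e-05). The muscle formin Fhod3 rose from 3.81 ± 0.185 to 6.54 ± 0.729 FPKM (log2 0.64, limma adjusted p = 0.00363), and its relative Fhod1 from 7.19 ± 0.228 to 10.4 ± 0.177 FPKM (log2 0.48, limma adjusted p = 0.0037). The formin Daam1 fell from 21.6 ± 3.9 to 10.2 ± 0.865 FPKM (log2 -1.0, limma adjusted p = 0.00158). The count of nucleators called higher was 4 to 6 over the alternatives. The count called lower was 5 with the trends with exon length and GC content removed, 3 without WT replicate 3, and 1 without FHL3 KO replicate 1 or 3 and with no filter on low values. Removal of those trends also took the change of Fhod1 to 0.27, still called.

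Among 10 tested actin-related genes, 1 was called higher and 2 lower, beside 40.8% called over all genes. Actr2, a subunit of the Arp2/3 complex that starts branched filaments, fell from 63.0, 60.2 and 51.7 FPKM to 32.9, 38.8 and 30.3 FPKM (log2 -0.76, limma adjusted p = 0.00249). Its partner Actr3, named after its values were seen, had 93.2 ± 3.7 FPKM in WT and 93.1 ± 8.56 FPKM under the knockout label. The calls of Actr6 and Actr10 were lost without either of FHL3 KO replicate 1 and WT replicates 1 and 2, and also, for Actr6, without FHL3 KO replicate 3 or WT replicate 3 and, for Actr10, without FHL3 KO replicate 2. With the trends with exon length and GC content removed, Actr2 was at -0.43 (still called), Actr6 at -0.21 (limma adjusted p = 0.22) and Actr10 at 0.71 (limma adjusted p = 0.00273). With the replicate block, Actr6 and Actr10 had adjusted p of 0.0521 and 0.054, and both were also lost with quantile normalization and with no filter, and Actr10 with scaling to the same sum. Actbl2, a beta-like actin outside the 6, was listed at 0 in every library.

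Of 15 genes that fold actin (TRiC, prefoldin and Pdcl3), 1 was called higher and 2 lower, with a median of 0.11, beside 40.8% called over all genes. The counts were not stable: 0 to 5 were called higher and 0 to 3 lower over the alternatives, with 5 higher and 1 lower when the trends with exon length and GC content were removed. Called in the full fit were the TRiC subunit Cct5 (189.6 and 227.6 FPKM, log2 0.26, limma adjusted p = 0.0235), the subunit Cct8 (120.5 and 96.3 FPKM, log2 -0.32, limma adjusted p = 0.024) and the prefoldin subunit Vbp1 (33.6 and 26.2 FPKM, log2 -0.36, limma adjusted p = 0.0269). All 3 calls were lost without FHL3 KO replicate 3 and without WT replicate 1 or 2, and those of Cct5 and Vbp1 also without FHL3 KO replicate 1. With the trends removed, all 3 were lost too, at 0.10 for Cct5 (limma adjusted p = 0.223), -0.17 for Cct8 (0.107) and -0.06 for Vbp1 (0.51). Cct5 was also lost with the replicate block (limma adjusted p = 0.0638), quantile normalization and scaling to the same sum, and Cct8 and Vbp1 with no filter.

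Of 8 tested genes that modify or process actin, none was called higher and 3 lower, beside 19.7% and 21.2% over all genes. They were Mical2, its relative Mical1 (32.1 and 24.3 FPKM, log2 -0.39, limma adjusted p = 0.00652) and the arginyltransferase Ate1 (log2 -0.48, limma adjusted p = 0.0319), whose call was lost without any 1 of FHL3 KO replicates 1 and 3 and WT replicates 1 and 2, and with no filter. The monomer-binding thymosins Tmsb4x (1866 ± 119 and 2077 ± 228 FPKM) and Tmsb10 (3183 ± 489 and 2820 ± 842 FPKM) did not pass.

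**Figure D5:**
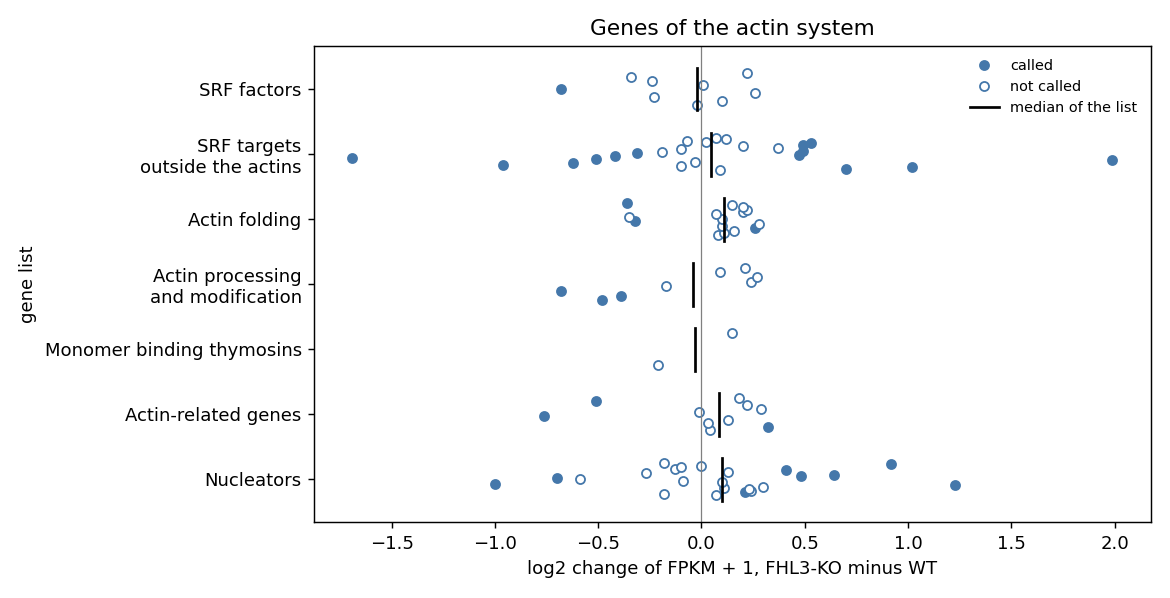
Log2 change (FHL3 KO minus WT) of each tested gene in 7 lists of the actin system, filled where the gene passed the test, with the median of each list as a bar. The medians lie between -0.04 and 0.11, while Egr1 at 1.99 and Filip1l at -1.69 mark the ends.

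Markers of cell types moved beside the actins. For comparison with the counts here, 19.7% of all genes tested were called higher and 21.2% lower. The summed level of 8 markers of myotubes was 1956 to 2358 FPKM in WT and 3987 to 4928 FPKM under the knockout label. Of the 8, 7 were called higher, among them Tnnc2, whose groups overlapped, while Ttn did not pass (log2 -0.29, limma adjusted p = 0.308). Markers of fibroblasts summed to 1731 to 2163 and 1253 to 1474 FPKM, with 1 called higher and 3 lower of 7 tested, Thy1 at 0 and Lum below 1 FPKM in all libraries. Fn1, which was not called, carried most of that sum (1288 and 1033 FPKM). Dcn fell 12.5-fold, from 151.9 ± 10.5 to 12.1 ± 1.07 FPKM (limma adjusted p = 2.02e-06). Postn fell 10.7-fold, from 108.2 ± 16.1 to 10.1 ± 1.33 FPKM (limma adjusted p = 9.39e-06), and Col3a1 was also called lower (201.6 and 122.8 FPKM). Col1a1 went the other way, from 4.16 ± 0.059 to 8.67 ± 1.14 FPKM (log2 0.90, limma adjusted p = 0.00108). Col1a2 was higher in every library under the knockout label but did not pass (126.2 and 146.7 FPKM). Of 6 smooth muscle markers, Myh11 and Myocd were below 1 FPKM in all libraries, and the sum was 64.9 to 74.1 FPKM in WT and 113.2 to 116.3 FPKM under the knockout label, with 3 of the 4 tested called higher and 1 lower. Smtn (45.4 and 82.3 FPKM) and Synpo2 (23.0 and 30.5 FPKM) carried most of that sum. Lmod1 was low (1.09 and 1.69 FPKM), and Cnn1 was the one called lower. Of 8 cardiomyocyte markers, Nppa, Myl7 and Ryr2 were below 1 FPKM in all libraries, 1 of the 5 tested was called higher and 2 lower, and the sums were 31.3 to 36.8 and 36.5 to 47.7 FPKM. The part of a changed cell make-up in the actin values was not tested. In such bulk samples, fewer cells of a type and less RNA per cell cannot be told apart.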

How the data were processed

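RNA-seq of 6 libraries was used. The tools named per the submitters' processing notes are DESeq2 1.28.1, featureCounts 2.0.1, HISAT2 2.2.1 and Trim Galore 0.6.6, and the build is mm10; their roles are not stated. Strand setting, annotation and handling of reads shared between genes were not given in the sources used. The authors deposited decimal values per gene, read here as FPKM from the values, since per the file headers no unit is named. Of 55420 rows, 7 with 3 repeated gene IDs were left out. Positions, transcripts, exon lengths and GC content came from GENCODE M21 (GRCm38), which held 94.0% of the IDs.

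Genes that averaged 1 FPKM or more in either group were fitted as log2(FPKM + 1) with limma 3.58.1 in R 4.3.3 (moderated two-sided test with a mean-variance trend, no covariates, Benjamini-Hochberg adjustment over 12528 genes, threshold 0.05). Log2 changes are on this scale, which understates changes of low genes, while folds are of mean FPKM. On simulated data with 67, 67 and 66 genes changed 1.5-, 2- and 4-fold, the fit recovered 52.2%, 71.6% and 98.5% of them, with 5 false calls. Changes below 1.5-fold were not simulated, and far fewer genes changed there than were called in the real data. Shares and ratios were compared by exact two-sided permutation. Shared sequence was the share of 100-base windows of a transcript found in a transcript of another gene. Members, lists and rules were chosen with earlier results of these data known. Named were the 6 actins, Fhl3, the 3 genes most like each actin, the up to 4 list members of lowest p per list, and Srf, Mrtfa, Mrtfb and Myocd; the text gives a part of these. Junb, which had a repeated ID, and Actmap had no record. Alternatives were another pseudocount (0.1), filter (none or 5 FPKM), threshold (0.01) or scaling, removal of trends with exon length and GC content, the replicate block and leaving out each library.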

Additional observations from a re-analysis of the deposited data

How the results depend on the processing

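All 6 actin genes kept their direction and their side of the threshold under every alternative run. The log2 change ranged from 1.28 to 1.53 for Acta1 (highest limma adjusted p 0.0117), from 2.14 to 2.38 for Actc1 (0.00051), from -2.03 to -1.79 for Actg2 (0.000708), from 0.0946 to 0.278 for Acta2 (lowest 0.0825), from 0.085 to 0.359 for Actb (lowest 0.0779) and from -0.228 to -0.0059 for Actg1 (lowest 0.0572). The count of all genes called, 5112, was 2695 at a threshold of 0.01 and 3272 to 5273 when 1 library was left out, lowest without WT replicate 2. With the whole library as the denominator, the shares of Acta2 and Actb reversed, to 0.0214 and 0.0254 percentage points, with overlapping groups for Actb. With the replicate block, 4759 genes were called, and Acta1, Actc1 and Actg2 had adjusted p of 0.00195, 0.000197 and 0.000458. Libraries with the same number correlated at -0.13 to 0.32 in their deviations from the group means, and those with different numbers at -0.38 to 0.37. With 3 libraries per group, these values cannot settle whether the numbers pair them. Alternatives for genes other than actins were chosen after seeing the data. Among uncalled genes, Srf reversed to -0.1116 with the trends with exon length and GC content removed. Tmsb10 ranged from -0.4237 to 0.0124 when 1 library was left out and reversed without FHL3 KO replicate 2. Mrtfa reversed to -0.1487 with these trends removed, -0.0183 with quantile normalization and -0.0937 with scaling to the same sum, and ranged from -0.0747 to 0.11 when 1 library was left out, reversed without FHL3 KO replicate 2 or WT replicate 2 or 3. The cause was not tested. Depth is unknown, so no counting error was given.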
